A study of Mus musculus with 42 samples.

Results

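The Tet dioxygenases of the mouse are encoded by Tet1, Tet2 and Tet3, and their transcripts were followed through polyA RNA sequencing of mouse embryonic stem cells (ESCs) during differentiation. The members were taken by gene name. They make up 3 of the 16345 named genes in the table of the epiblast-like cell (EpiLC) course and 3 of the 16753 genes in the table of the embryoid body (EB) course, and each had reads in every library. TET enzymes oxidise 5-methylcytosine in DNA to 5-hydroxymethylcytosine and on to formyl and carboxyl forms, using iron and 2-oxoglutarate as cofactors. The oxidised bases are then lost through DNA replication or cut out by the glycosylase TDG and base excision repair. In mouse ESCs Tet1 and Tet2 are known as the main members, Tet2 as a marker of the naive state, while Tet3 is known from the oocyte, the zygote and differentiating cells.

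KH2-ISY1 is a mouse ESC line carrying Flag-tagged ISY1, a splicing factor, under control of doxycycline (Dox). Without Dox it was sampled in 2i/LIF, the medium of naive ESCs, at 0 h and then at 6, 12, 18, 24, 30, 36, 48, 72 and 96 h in EpiLC medium, and with Dox at 24, 48, 72 and 96 h in that medium. EpiLCs of 24 h and 48 h, raised with or without Dox, were also replated into 2i/LIF without Dox to give converted ESCs (cESCs), 1 library for each. A separate DGCR8 knockout ESC line, which lacks the partner of the nuclease that cuts primary microRNAs, was sampled at 0, 6, 24, 48, 72 and 96 h. For the EB course KH2-ISY1 cells without Dox were sampled in serum/LIF (day 0) and on days 1, 2, 4, 8, 10 and 13, with 1 further library of serum/LIF cells with Dox. Each condition and time has 1 library. A test therefore measures spread over times or hours and not between replicate cultures. The knockout line is named only by its deleted gene, so the knockout and the difference between lines cannot be told apart.

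Values are read counts that the authors divided by 1 size factor per library, called normalised read counts here, and libraries held 5.80 to 56.02 M reads. Dgcr8 stood between 36.8 and 44.5 in the 6 knockout libraries and between 75.2 and 231 in the 10 libraries without Dox. Isy1 was 3038 at 24 h with Dox against 422.7 without it, and 707.7 against 417.9 at 96 h. The naive and formative markers followed the labels. Along the course without Dox the summed value of 6 naive pluripotency markers ranged from 465.5 to 24970 and ended at its lowest. That of 5 formative epiblast markers ranged from 298.8 to 3211. Other marker groups also changed in that course, where 50.1% of all genes passed limma's adjusted p of 0.05. All 3 ESC and epiblast markers fell, with a summed value of 14370 at 0 h and 7055 at 96 h, as did 3 of 4 primitive endoderm markers. Of those tested, 2 of 2 fibroblast, 2 of 3 neural and 1 of 2 heart markers rose. The fibroblast sum was 51.3 at 0 h and 154.5 at 96 h. No transcript lengths were used, so levels are compared within a gene and not between the 3 genes, and a count per gene does not separate the long and short Tet1 isoforms known in mouse.

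One RefSeq promoter window per gene is shown because the windows differ in CpG content, CpG being the dinucleotide whose cytosine TET enzymes and DNA methyltransferases act on. Each sequence runs 5′ to 3′ on the minus strand from 250 bases before to 50 bases after a RefSeq transcript start (GRCm38.p6), with CpG dinucleotides in capitals. They lie at chr10:62887275-62887574 for Tet1, chr3:133544341-133544640 for Tet2 and chr6:83441629-83441928 for Tet3. The start used lies 145 bases inside the annotated gene for Tet1, 746 for Tet2 and 15530 for Tet3, so none of the windows is at the outermost start and that of Tet3 is far inside the gene.
Tet1: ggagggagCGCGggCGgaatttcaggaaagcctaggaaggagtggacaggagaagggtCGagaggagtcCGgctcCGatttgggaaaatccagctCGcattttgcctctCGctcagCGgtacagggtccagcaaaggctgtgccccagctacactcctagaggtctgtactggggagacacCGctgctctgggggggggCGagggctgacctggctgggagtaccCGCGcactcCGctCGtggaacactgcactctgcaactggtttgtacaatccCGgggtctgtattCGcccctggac
Tet2: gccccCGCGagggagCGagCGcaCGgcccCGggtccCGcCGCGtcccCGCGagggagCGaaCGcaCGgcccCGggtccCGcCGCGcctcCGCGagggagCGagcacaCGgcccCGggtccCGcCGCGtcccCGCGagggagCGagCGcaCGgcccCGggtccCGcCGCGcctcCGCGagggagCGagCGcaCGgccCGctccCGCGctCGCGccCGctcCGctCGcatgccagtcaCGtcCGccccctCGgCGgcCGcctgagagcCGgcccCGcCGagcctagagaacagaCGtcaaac
Tet3: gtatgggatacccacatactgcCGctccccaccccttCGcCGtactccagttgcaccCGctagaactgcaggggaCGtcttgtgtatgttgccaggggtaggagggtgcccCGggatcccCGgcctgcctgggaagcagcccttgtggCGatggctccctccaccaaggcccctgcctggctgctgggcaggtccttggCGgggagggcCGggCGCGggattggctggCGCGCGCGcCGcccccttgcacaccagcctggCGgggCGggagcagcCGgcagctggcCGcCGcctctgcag
The Tet2 window holds 57 CpGs, more than 99.85% of the 32851 RefSeq promoters of the same length, whose median is 7. A single run of 12 bases occurs in it 5 times, whereas no run of that length recurs in the windows of Tet1 and Tet3. The Tet1 window holds 17 CpGs and the Tet3 window 22, more than 68.6% and 76.9% of promoters. The letters GGGCGG of a GC box, searched on both strands, occur 1 time each in the Tet1 and Tet2 windows and 2 times in that of Tet3, as they do at least 1 time in 35.7% of all promoters. The ESRRB site TCAAGGTCA, the octamer ATGCAAAT and the E-box CACGTG occur in none of the 3 windows and in 0.423%, 1.73% and 7.15% of all promoters.

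The course without Dox shows how the family behaves as naive cells enter the formative epiblast state. The 3 genes took 3 different paths: Tet1 rose after a dip at 6 h and then fell, Tet2 fell after a small early rise, and Tet3 rose. Tet1 measured 1513 at 0 h, 1288 at 6 h, 2336 at 12 h, 2209 at 18 h, 2236 at 24 h, 3258 at 30 h, 2601 at 36 h, 2640 at 48 h, 1528 at 72 h and 913 at 96 h. The 6 h library lay below the start beyond counting error. The 6 libraries from 12 to 48 h all lay above the start and the end beyond counting error, 72 h was level with the start, and 30 h was the highest. Its profile passed the threshold (limma, adjusted p = 0.000854, n = 10 libraries), with a fitted change between the ends of −0.70 ± 0.27 (SE) on the log2 scale. In every course the adjusted p belongs to the whole profile, by an F test over all spline terms. The fitted change between the ends was not itself tested. The sign of that end-to-end change rests on the last library: without 96 h it was 0.079, with the profile still past the threshold (adjusted p = 0.0119). A spline of 2 degrees of freedom in place of the one used gave a smaller change of −0.16, also with the profile past the threshold (adjusted p = 0.0113).

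Tet2 measured 426 at 0 h, 412 at 6 h, 553 at 12 h, 526 at 18 h, 334 at 24 h, 365 at 30 h, 295 at 36 h, 108 at 48 h, 45.5 at 72 h and 35.3 at 96 h. The 12 h and 18 h libraries were above the start, and every library from 24 h on was below it. Only the 30 h library, among these, had a counting interval that overlapped that of 0 h. The profile passed the threshold (limma, adjusted p = 2.98e-05), with a fitted fall of 3.72 ± 0.42 (SE) log2 units, 13.1-fold. Relative to the other genes of its library Tet2 went from the 81.9th to the 32.9th percentile of values. The 48 h library held 108 against 295 at 36 h, the largest ratio between neighbouring libraries of the course.

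Tet3 measured 52.2 at 0 h, 136 at 6 h, 96.4 at 12 h, 109 at 18 h, 96.4 at 24 h, 137 at 30 h, 110 at 36 h, 192 at 48 h, 285 at 72 h and 251 at 96 h. It stepped up by 6 h, stayed between 96.4 and 137 up to 36 h, and was higher from 48 h on. The profile passed the threshold (limma, adjusted p = 0.00402), with a fitted rise of 2.34 ± 0.43 (SE) log2 units, 5.05-fold. Without the 0 h library the rise was 1.02, with the profile still past the threshold. With 50.1% of all 16206 tested genes called in this course, a call alone sets no member apart, whereas only 33.1% of genes had a fitted change of at least 2-fold, as Tet2 and Tet3 had. In RNA from whole cultures, fewer cells expressing a gene and less RNA per cell cannot be told apart.

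**Figure D1:**
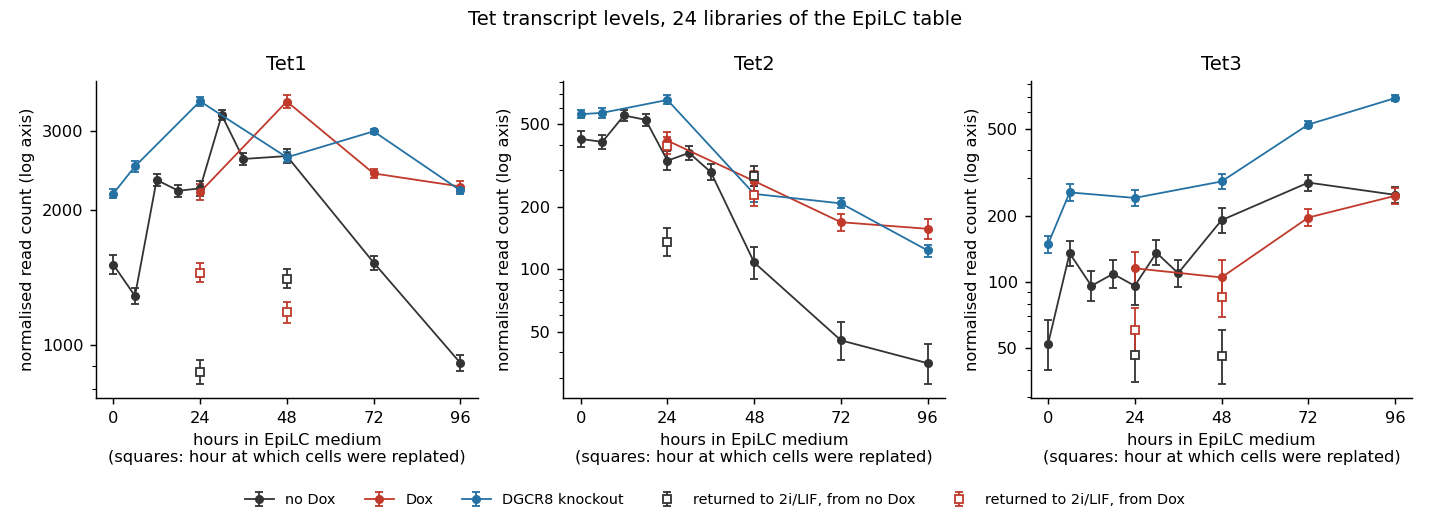
Normalised read counts (log axis) of Tet1, Tet2 and Tet3 against hours in EpiLC medium, 1 library per point, with lines for cells without Dox, with Dox and for the DGCR8 knockout, open squares for cESCs at the hour of replating, and bars for the exact 95% Poisson counting interval. At 96 h Tet1 stands at 913 without Dox and at 2258 with Dox and 2212 in the knockout, and Tet2 at 35.3, 157 and 123.

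The members kept no common order across libraries. Over the 10 libraries without Dox Pearson's r of log2 values was 0.50 between Tet1 and Tet2, −0.28 between Tet1 and Tet3 and −0.84 between Tet2 and Tet3. Over all 24 libraries of the table, which share these 10, the values were 0.40, 0.41 and −0.36. These correlations describe time courses whose neighbouring libraries are not independent. The ratio of Tet3 to Tet2, which needs no gene length, rose by 5.86 log2 units from 0 h to 96 h without Dox. It rose by 4.40 in the knockout over the same hours, and the 96 h library with Dox was 3.69 above the 0 h library without Dox.

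Ranking all 24 libraries by level placed Tet1 highest in the knockout at 24 h (3496) and in EpiLCs with Dox at 48 h (3492), and lowest in cESCs from 24 h EpiLCs without Dox (873). Tet2 was highest in the knockout at 24 h (657) and at 6 h (569) and lowest at 96 h without Dox (35.3). Tet3 was highest in the knockout at 96 h (692) and 72 h (524) and lowest in cESCs from 48 h EpiLCs without Dox (46.4). Of the 23 neighbouring pairs in each ranking, 18 for Tet1, 19 for Tet2 and 19 for Tet3 had overlapping counting intervals. These intervals cover counting error only, since reads without molecular identifiers are not independent molecules.

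The comparison with Dox asks what differed at a given hour of EpiLC differentiation when Dox induced ISY1. No line without the ISY1 construct was given Dox, so Dox itself and induced ISY1 cannot be told apart. Tet2 was higher with Dox at each of the 4 hours. It measured 418 with Dox and 334 without at 24 h, 267 and 108 at 48 h, 169 and 45.5 at 72 h, and 157 and 35.3 at 96 h. The counting intervals were apart at all 4 hours, and the ratio went from 1.25 to 4.45. The mean log2 difference was 1.40 ± 0.27 (SE, 4 pairs; limma, adjusted p = 0.0471), a 2.64-fold higher level, in a comparison in which 2.83% of 16117 genes passed. The call stood close to the threshold: it ended without the 48 h pair (adjusted p = 0.150), the 72 h pair (0.277) or the 96 h pair (0.0859), and in edgeR on recovered reads of the 24 h and 48 h pairs (adjusted p = 0.152, log2 0.73). It also ended with no hour block (adjusted p = 0.654), no intensity trend (0.135), median-ratio scaling (0.0527) or no filter on low values (0.0522).

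Tet1 measured 2194 with Dox and 2236 without at 24 h, 3492 and 2640 at 48 h, 2415 and 1528 at 72 h, and 2258 and 913 at 96 h. The 24 h libraries overlapped in their counting intervals, and the later 3 hours were each higher with Dox. The mean log2 difference of 0.59 (95% interval 0.15 to 1.02) did not pass over all genes (limma, adjusted p = 0.125), and it did without the 24 h pair (log2 0.79, adjusted p = 0.0452). Tet3 measured 116 with Dox and 96.4 without at 24 h, 105 and 192 at 48 h, 197 and 285 at 72 h, and 248 and 251 at 96 h. It was lower with Dox at 48 h and 72 h beyond counting error and overlapped at 24 h and 96 h. Its mean log2 difference was −0.28 (95% interval −0.72 to 0.15; limma, adjusted p = 0.396).

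The difference between Dox and no Dox widened with the hour for Tet1 and Tet2. From 24 h to 96 h the fitted difference changed by 1.26 ± 0.20 (SE) log2 units for Tet1 and by 1.83 ± 0.29 for Tet2 (limma, adjusted p = 0.0151 for both), in a test that 2.84% of genes passed. Each of these calls rests on an end of the course, that of Tet1 ending without the 96 h pair (adjusted p = 0.132) and that of Tet2 without the 24 h pair (adjusted p = 0.121). Both ended without limma's intensity trend (adjusted p = 0.198 and 0.159). For Tet3 the change was −0.26 (95% interval −1.28 to 0.75, adjusted p = 0.824).

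Markers of the naive state moved in the same pairs. The summed value of the 6 naive markers was 10110 with Dox and 7471 without at 24 h, 5784 and 2088 at 48 h, 3608 and 834 at 72 h, and 2259 and 465.5 at 96 h, and 4 of the 6 rose with Dox. None of the 6 was at 0 in any of these libraries. The summed value of the 4 primitive endoderm markers in this table was 52.6 to 100.1 with Dox and 9.5 to 39.1 without, with 1 marker at 0 in 1 library, and 2 of the 4 (Sox7 and Gata6) rose. That of the 5 formative epiblast markers was 997.2 with Dox and 1687 without at 24 h, 1431 and 2929 at 48 h, 1928 and 3211 at 72 h, and 1914 and 2884 at 96 h, and 3 of the 5 fell. These counts take markers past the threshold in the Dox comparison, which 2.83% of all genes passed. That comparison called 0 genes with no intensity trend, with no hour block, or without the 48 h or the 72 h pair. The marker calls therefore ended there too. The part of these marker groups in the Tet differences was not tested.

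The DGCR8 knockout line asks how the family stands in cells without canonical microRNAs. All 3 members were higher there. Tet3 measured 149 in the knockout and 52.2 without Dox at 0 h, 257 and 136 at 6 h, 243 and 96.4 at 24 h, 288 and 192 at 48 h, 524 and 285 at 72 h, and 692 and 251 at 96 h. The knockout was higher beyond counting error at all 6 hours. The mean log2 difference was 1.11 ± 0.14 (SE, 6 pairs; limma, adjusted p = 0.000425), or 2.16-fold. In this comparison 42.4% of 16267 genes passed and 15.1% differed at least 2-fold, which Tet2 and Tet3 did.

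Tet2 measured 560 in the knockout and 426 without Dox at 0 h, 569 and 412 at 6 h, 657 and 334 at 24 h, 231 and 108 at 48 h, 208 and 45.5 at 72 h, and 123 and 35.3 at 96 h. It too was higher beyond counting error at all 6 hours, by 1.14 ± 0.23 (SE) log2 units on average (limma, adjusted p = 0.0040). Tet1 measured 2177 in the knockout and 1513 without Dox at 0 h, 2504 and 1288 at 6 h, 3496 and 2236 at 24 h, 2622 and 2640 at 48 h, 2997 and 1528 at 72 h, and 2212 and 913 at 96 h. The 48 h pair was level within counting error and the other 5 were higher in the knockout, for a mean of 0.73 ± 0.15 (SE) log2 units (limma, adjusted p = 0.00465). The calls for Tet2 and Tet3 depend on pairing the libraries by hour, since without the hour as a block the adjusted p was 0.264 and 0.0968.

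No member's knockout difference changed with the hour past the threshold, in a test that 0.523% of genes passed. For Tet2 the fitted difference grew by 1.70 log2 units from 0 h to 96 h (95% interval 0.90 to 2.50; limma, adjusted p = 0.0758), for Tet1 by 0.35 (interval −0.61 to 1.32, adjusted p = 0.747), and for Tet3 it changed by −0.23 (interval −1.13 to 0.68, adjusted p = 0.837). Marker counts are given for the mean difference over the 6 hours, which 42.4% of all genes passed, and not for the change with hour. The naive markers were again higher in it, 4 of 6 past the threshold, with a summed value of 1520 at 96 h in the knockout against 465.5. Of the neural markers 1 of 3 passed as higher, with a summed value in the knockout of 1048 at 24 h (379.1 without Dox), 437.4 at 48 h (426.6), 1456 at 72 h (795) and 2315 at 96 h (499.5). Of the formative epiblast markers 1 of 5 passed as higher and 2 as lower, of the primitive endoderm markers 1 of 4 as higher and 2 as lower, and of the fibroblast markers both of the 2 tested as lower. The part of these markers in the Tet differences was not tested.

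**Figure D2:**
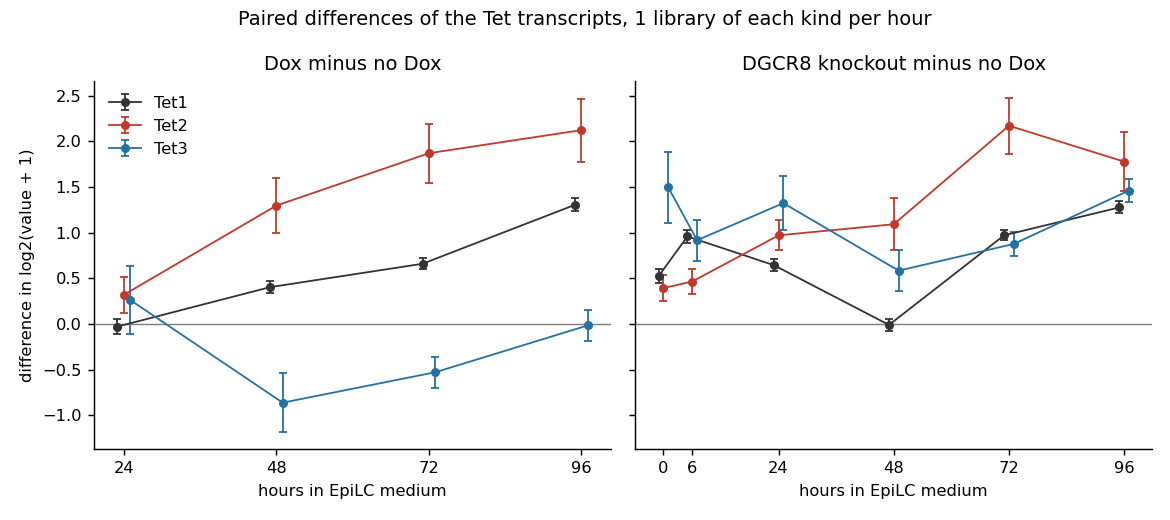
Difference in log2(value + 1) between libraries of the same hour, Dox minus no Dox (left) and DGCR8 knockout minus no Dox (right), against hours in EpiLC medium, for Tet1, Tet2 and Tet3, with bars for 95% counting error. Tet2 is above 0 at all 10 points, Tet3 is above 0 at all 6 points of the knockout and at 1 of the 4 points with Dox.

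Both comparisons share the libraries without Dox, so their values are set side by side only. At 72 h Tet2 was 1.87 log2 units higher with Dox and 2.17 higher in the knockout, and at 96 h 2.12 and 1.78. Tet1 at 96 h was 1.31 and 1.28 higher. Tet3 was −0.86 with Dox and 0.58 in the knockout at 48 h, and −0.01 and 1.46 at 96 h. Set directly against the library with Dox of the same hour, Tet3 in the knockout was 2.09 times as high at 24 h, 2.74 at 48 h, 2.65 at 72 h and 2.79 at 96 h, each with counting intervals apart, while for Tet1 that ratio lay between 0.75 and 1.59 and for Tet2 between 0.79 and 1.57.

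Within the knockout course itself Tet2 fell by 2.26 ± 0.32 (SE) log2 units between the fitted ends and Tet3 rose by 1.97 ± 0.28. Both profiles passed (limma, adjusted p = 0.00531 and 0.00716, n = 6 libraries), where 25.1% of genes passed. Both calls ended without the 96 h library (adjusted p = 0.058 and 0.0871). Tet1 changed by 0.13 (95% interval −0.39 to 0.65) and stayed between 2177 and 3496, and its profile did not pass (limma, adjusted p = 0.199).

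Replating EpiLCs into 2i/LIF asks whether levels return to those of naive cells. Tet1 and Tet3 were lower in cESCs than in the EpiLCs they came from, and Tet2 went in different directions. Without Dox, Tet1 measured 873 in cESCs for 2236 in the 24 h source and 1408 for 2640 in the 48 h source, and with Dox 1453 for 2194 and 1185 for 3492. All 4 pairs fell, by 1.10 ± 0.18 (SE) log2 units on average (limma, adjusted p = 0.0054), where 18.4% of genes passed. The median of all genes was itself −0.14 in this comparison, so relative to it Tet1 changed by −0.97. Against 1513 in the 0 h library, the cESC values lay between 873 and 1453.

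Tet3 measured 46.7 against 96.4 and 46.4 against 192 without Dox, and 60.5 against 116 and 85.6 against 105 with it. The first 3 pairs were apart beyond counting error and the last overlapped. The mean was −1.07 ± 0.28 (SE, limma, adjusted p = 0.0336), −0.93 relative to the median gene, and the call ended without the 48 h pair from cells without Dox (adjusted p = 0.105) or the 24 h pair from cells with Dox (adjusted p = 0.103), and in limma with no intensity trend (adjusted p = 0.0773) or in edgeR (adjusted p = 0.0519). The cESC values of 46.4, 46.7 and 60.5 overlapped the 52.2 of the 0 h library in their counting intervals, and 85.6 lay above it.

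Tet2 measured 136 against 334 and 283 against 108 without Dox, and 395 against 418 and 230 against 267 with it. It was lower than its source in the 24 h pair without Dox, higher in the 48 h pair without Dox, and level within counting error in both pairs with Dox. The mean of −0.05 had a 95% interval of −0.87 to 0.77 (limma, adjusted p = 0.929). Against 426 in the 0 h library, the cESC values of 136, 283 and 230 were lower with counting intervals apart. The value of 395, from 24 h EpiLCs with Dox, overlapped that library. Between cESCs of the same hour, earlier Dox went with a 2.91-fold higher Tet2 at 24 h and a ratio of 0.81 at 48 h, each a single library against another with no replicate check. At 24 h the median gene was itself 0.17 log2 units higher with earlier Dox. Median-ratio scaling lowered that Tet2 difference from 1.53 to 1.33 log2 units. The cESC library from 24 h EpiLCs without Dox, lowest of the 4 for Tet1 and Tet2, also held the lowest summed naive markers of the 4, 8141 against 11800 to 19630.

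The EB course follows the family over a longer differentiation into mixed cell types. Tet1 fell through the course, measuring 3435 on day 0, 3352 on day 1, 2679 on day 2, 608 on day 4, 299 on day 8, 306 on day 10 and 189 on day 13. The first 3 libraries were all at least 2679 and the last 4 at most 608. The profile passed the threshold (limma, adjusted p = 0.00347, n = 7 libraries), where 26.9% of 16753 genes passed. The fitted fall was 4.79 ± 0.57 (SE) log2 units. The median gene rose by 0.12 in this fit, so relative to it Tet1 changed by −4.91. Summed values of the ESC and epiblast markers Nanog, Pou5f1 and Sox2 ranged from 948.3 to 12380 across the same libraries and all 3 fell, while 2 of 4 fibroblast, 3 of 3 neural, 4 of 5 primitive endoderm and 0 of 4 heart markers passed the threshold as higher, as did the 1 blood marker in the table. The summed value of the heart markers was 11.18 to 65 up to day 10 and 1144 on day 13. The part of cell composition in the Tet changes was not tested.

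Tet3 rose, measuring 176 on day 0, 88.6 on day 1, 231 on day 2, 279 on day 4, 424 on day 8, 894 on day 10 and 1176 on day 13. Only day 1 was below the start, and each later day was above the one before it beyond counting error. The profile passed the threshold (limma, adjusted p = 0.00621), with a fitted rise of 3.10 ± 0.48 (SE) log2 units, 2.98 relative to the median gene. Relative to the other genes of its library Tet3 moved from the 64.8th to the 95.6th percentile.

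Tet2 measured 699 on day 0, 894 on day 1, 394 on day 2, 115 on day 4, 42.9 on day 8, 159 on day 10 and 120 on day 13. It was lowest on day 8 and higher again on days 10 and 13, with counting intervals apart from day 8. The profile missed the threshold (limma, adjusted p = 0.0578), with a fitted change between the ends of −3.58 ± 0.95 (SE). The profile passed with a spline of 1 degree of freedom in place of 2 (adjusted p = 0.0275) and without the day 0 library (adjusted p = 0.00432). On day 8 the level was 0.0614 of that on day 0, on day 10 it was 0.227 of it.

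**Figure D3:**
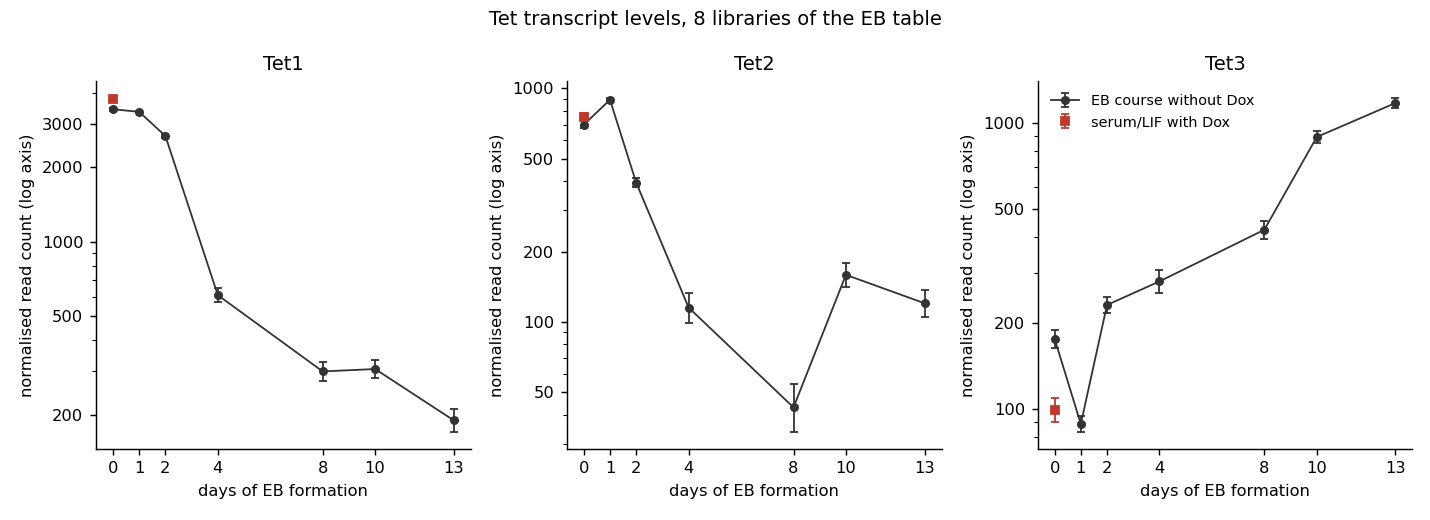
Normalised read counts (log axis) of Tet1, Tet2 and Tet3 against days of EB formation without Dox, 1 library per point, with the serum/LIF library with Dox as a square at day 0 and bars for the exact 95% Poisson counting interval. Tet1 ends at 189 from 3435, Tet2 dips to 42.9 on day 8, and Tet3 ends at 1176 from 176.

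In serum/LIF, where Isy1 stood at 5096 with Dox and 328 without, Tet3 measured 99.3 with Dox and 176 without, a ratio of 0.564 (log2 −0.82, counting interval −0.99 to −0.65). Tet1 measured 3763 and 3435 and Tet2 758 and 699, ratios of 1.10 and 1.08. There is 1 library of each kind, so these ratios have no replicate check and no test was made. For Tet3, 13.7% of genes with a mean of at least 1 in these libraries differed by as much in either direction, and for Tet1 and Tet2 74.6% and 77.4% did.

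The partners of TET enzymes were described from 7 lists of genes that write, read, remove or supply the modified cytosine. The lists were chosen with earlier results of these data known, so their shares are a description only. Along the EpiLC course without Dox 52 of 77 tested list genes passed (23 higher and 29 lower, 67.5%), beside 50.1% of all genes. In the courses, counts of genes that rose or fell take those whose whole profile passed and give the sign of their change between the fitted ends. Of the 9 genes that write or maintain 5-methylcytosine, 4 rose and 4 fell. The de novo methyltransferases Dnmt3a and Dnmt3b rose by 4.33 ± 0.86 and 3.92 ± 0.41 (SE) log2 units, and Dppa3, known for protecting DNA from methylation and demethylation in mouse germ cells and zygotes, fell by 3.94 ± 0.94 (limma, adjusted p = 0.000207, 5.03e-05 and 0.00561). Dnmt3b went from 73.9 at 0 h to 936.2 at 96 h. The median over the 9 genes was 0.00 beside −0.02 over all genes.

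Of 12 TET partners and regulators 4 rose and 4 fell in that course. Prdm14, a naive-state factor known to act with TET enzymes in mouse ESCs, fell by 6.00 ± 0.74 (SE) log2 units, the RNA-binding protein Lin28a rose by 4.35 ± 0.31, and Nanog, which binds TET1 in ESCs, fell by 1.82 ± 0.51 (limma, adjusted p = 5.03e-05, 7.91e-06 and 0.00155). Of 15 genes that remove oxidised cytosine, 4 rose and 7 fell, among them the stress gene Gadd45b (1.45 ± 0.40), the uracil glycosylase Smug1 (−1.40 ± 0.34) and Tdg (1.37 ± 0.29), the glycosylase for formyl and carboxyl cytosine (limma, adjusted p = 0.00171, 0.012 and 0.00427). Of 17 genes of 2-oxoglutarate and vitamin C supply 5 rose and 7 fell, with the mitochondrial isocitrate dehydrogenase Idh2 at −1.84 ± 0.30 (limma, adjusted p = 0.00194). Of 9 readers 1 rose and 3 fell, and of 12 germline genes known to be silenced by promoter methylation 5 rose and 4 fell, with Dazl at −4.07 ± 0.59 (limma, adjusted p = 5.75e-05). None of 3 cytidine deaminases passed.

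With Dox 5 of the 77 list genes passed (6.49% beside 2.83% of all genes). This comparison called 0 genes with no intensity trend, with no hour block, or without the 48 h or the 72 h pair, so none of these calls held there. The imprint-protecting zinc finger Zfp57 (1.20 ± 0.17 log2 units) and Idh2 (0.61 ± 0.10) were higher, and Dnmt3b (−0.69 ± 0.10), Lin28a (−0.56 ± 0.08) and the transaminase Got2 (−0.41 ± 0.08) were lower (limma, adjusted p = 0.0345, 0.0389, 0.035, 0.0345 and 0.0491). In the knockout 33 of 77 passed (42.9% beside 42.4% of all genes). There 6 of 9 readers were higher and none was lower, with a median of 0.76 beside −0.08 over all genes, led by the methyl-CpG binders Zbtb38 (1.59 ± 0.18), Zbtb4 (1.25 ± 0.20) and Mbd1 (1.23 ± 0.12; limma, adjusted p = 0.000268, 0.00141 and 0.000178). Of the 12 TET partners and regulators, 4 were higher and 2 lower in the knockout, with Prdm14 at 2.74 ± 0.45 and Lin28a at −1.92 ± 0.32 (limma, adjusted p = 0.00154 and 0.0017). Of the germline genes 2 were higher and 5 lower, with Tex19.1 at −2.38 ± 0.40 (limma, adjusted p = 0.00172).

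**Figure D4:**
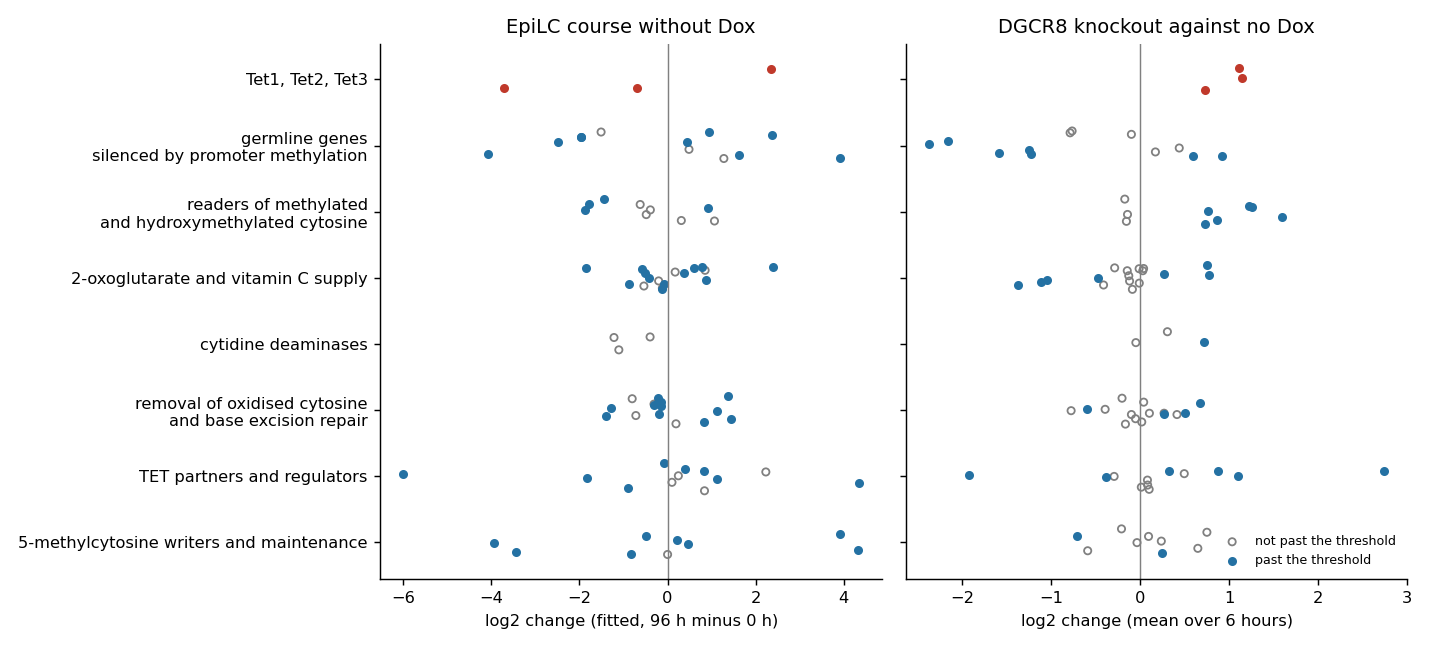
Log2 change of each gene of the 7 lists and of the 3 Tet genes in the EpiLC course without Dox (left, fitted 96 h minus 0 h) and in the knockout comparison (right, mean over 6 hours), with filled points past the limma threshold (red for the Tet genes) and open points not. Each list holds genes on both sides of 0 in the left panel except the cytidine deaminases, and the 3 Tet genes lie to the right of 0 in the right panel.

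In cESCs against their sources 26 of 76 list genes passed, 8 higher and 18 lower (34.2% beside 18.4%). The methyltransferase cofactor Dnmt3l fell by 5.60 ± 0.25 log2 units and Dnmt3b fell by 3.36 ± 0.23, while Dppa3 rose by 4.99 ± 0.43 (limma, adjusted p = 7.22e-05, 0.000174 and 0.0003). In the EB course 36 of 78 passed, 9 higher and 27 lower (46.2% beside 26.9%). Cxxc4, which encodes the CXXC protein known to bind TET2, rose by 7.67 ± 1.08 log2 units, from 1.59 on day 0 to 188.9 on day 13 (limma, adjusted p = 0.00565). Dnmt3l fell by 6.00 ± 0.70 there (limma, adjusted p = 0.00207), and of the 13 germline genes 7 fell and none rose.

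The genes whose log2 profiles over the 24 libraries were most like each member were ranked by Pearson's r among 13957 genes with a mean of at least 10, as a description over libraries that share time courses. For Tet1 they were Camk1d (0.91), the aldehyde dehydrogenase Aldh2 (0.88), Arhgef3 (0.87), Acyp2 (0.86) and Gm13238 (0.85). Over the 8 EB libraries their r with Tet1 was 0.76, 0.96, 0.50, −0.48 and 0.85. For Tet2 they were Cobl (0.97), an actin nucleator, H2-M6-ps (0.96), the transcription factor Zeb1 (0.95), Phf11d (0.94) and the cytokine receptor chain Il2rg (0.94), with r of 0.95, 0.92, −0.77, 0.87 and 0.77 over the EB libraries. Zeb1 thus ran with Tet2 in the EpiLC table and opposite to it in the EB table. For Tet3 they were the cell-cycle repressor E2f7 (0.95), the nuclear transport receptor Xpo7 (0.94), Mex3c (0.94), Wdr26 (0.93) and Uchl1 (0.92), with r of −0.02, −0.62, 0.47, 0.80 and 0.80 over the EB libraries. Xpo7 went from 243.5 at 0 h to 802.6 at 96 h without Dox and to 1326 at 96 h in the knockout.

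The microRNAs miR-26, miR-22 and miR-29 are known to target Tet transcripts in mouse or human cells, and the small RNA table of the KH2-ISY1 line holds them by name with no arm given. The scale of that table is not stated and library totals are unequal, so each is given as a share of its library's listed value, 1 library per time. miR-26a made up 0.267% at 0 h, 3.25% at 6 h and 2.88% at 48 h of the EpiLC course, and miR-29a 0.00456%, 0.0281% and 0.0267%. miR-22 made up 0.381%, 0.277% and 0.235%. Between serum/LIF without and with Dox, miR-26a made up 0.292% and 0.392%, miR-22 0.379% and 0.414%, and miR-29a 0.00771% and 0.00341%. On days 1 and 4 of the EB course miR-26a made up 1.476% and 2.139%, miR-22 0.3566% and 0.1001%, and miR-29a 0.01958% and 0.05419%. The share of miR-26b was highest at 6 h of the EpiLC course, at 0.2095%.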

How the data were processed

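PolyA RNA of 32 libraries and small RNA of 10 are in the series, and the 3 V6.5 small RNA libraries were not used here. Per the labels' protocols, RNA was extracted with Trizol and polyA libraries were made with a TruSeq stranded kit. The submitters' processing notes name Bowtie and the builds GRCm38 and mm9, without version or role. The counter and annotation are not given in the sources used here. The deposited polyA values are signal: low values up to 60 reads fall on whole steps in every library, which shows that the authors scaled each library's counts by a single factor. Reads could be recovered as whole numbers in 24 of 32 libraries, where at least 94.3% of values lay within 0.1 reads of a whole number. The step also gave the 95% exact Poisson intervals of each level. The deposited microRNA values are signal on an unstated scale.

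Values were analysed as log2(value + 1), so changes of low genes are understated, for genes with a mean of at least 1, with limma 3.58.1 in R 4.3.3 (intensity trend, two-sided, Benjamini-Hochberg over all genes tested, threshold 0.05). Courses were fitted as natural splines of the square root of time, and Dox, knockout and cESC comparisons as pairs of libraries with the hour or source as block, 1 library of each kind per pair. The p of a course is from limma's F test over all spline terms. Its change is the last fitted value minus the first and was not itself tested. The change of a difference with hour was fitted as a slope over the square root of the hour. As alternatives edgeR 4.0.16 on recovered reads, a pseudocount of 5, no filter, median-ratio scaling, no trend, another spline, no block and leaving out each library or pair were run. The fits were also run on simulated counts, drawn independently with the same spread setting for every gene. Real genes differ in spread, so that run does not check the calls given here. The members and lists were chosen with earlier results of these data known. Named list genes are at most the 3 past the threshold of largest change per list and comparison, and 5 similar genes per member were named. RefSeq promoters matched all 3 members.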

Additional observations from a re-analysis of the deposited data

Results flagged for a closer look

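The difference between libraries with and without Dox changed with the hour for 2 members, by the test of that change itself. For Tet1 the fitted log2 difference grew by 1.26 from 24 h to 96 h, and for Tet2 by 1.83 (limma, adjusted p = 0.0151 for both). The call of Tet1 ended without the 96 h pair (0.69, adjusted p = 0.132) and that of Tet2 without the 24 h pair (0.83, adjusted p = 0.121). With no intensity trend both calls ended (adjusted p = 0.198 and 0.159), in a fit that called 0 genes, with 2455 at an unadjusted p under 0.05. In single hours the Tet1 difference was −0.03, 0.40, 0.66 and 1.31 at 24, 48, 72 and 96 h, and that of Tet2 0.32, 1.30, 1.87 and 2.12. The summed value of the 6 naive markers was higher with Dox at the same hours, and their part in this was not tested.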

How the results depend on the processing

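Of 270 recomputed values of the members under alternatives and left-out libraries, 237 kept their direction and their side of the threshold, 20 lost the call, 3 gained it and 10 changed sign. The causes were not tested unless stated.

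Of the 10 changes of sign 2 concern a value past the threshold, Tet1 along the EpiLC course without Dox, at 0.083 in edgeR on recovered reads and 0.079 without the 96 h library. That library could not be recovered, so both fits end at 72 h. Without each library in turn the Tet1 change ranged from −0.77 to 0.079. The other 8 were past the threshold in neither setting. Tet2 in cESCs was 0.071 with median-ratio scaling, 0.056 in edgeR and −0.53 to 0.36 without each pair, and leaving out libraries or pairs gave −0.19 to 0.41 for Tet1 in the knockout course, −0.85 to 0.84 for Tet3 in the Dox difference by hour, and −0.070 to 0.56 for Tet1 and −0.63 to 0.20 for Tet3 in the knockout difference by hour.

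Tet2 with Dox lost the call, at nearly the same difference, with no filter (1.40, adjusted p = 0.0522), median-ratio scaling (1.41, 0.0527), no intensity trend (1.40, 0.135) and no block for hour (1.40, 0.654). On the 24 h and 48 h pairs alone it was smaller, at 0.73 in edgeR (adjusted p = 0.152) and 0.81 in limma, added after seeing the data (adjusted p = 0.00911). Without each pair in turn Tet2 ranged from 1.16 to 1.76 and Tet1 from 0.35 to 0.79. The number of genes called with Dox, 456, was 0 in limma with no trend (3306 at an unadjusted p under 0.05), 0 with no block (1276), 109 in edgeR, and 0 to 1122 without each pair (1924 to 4148 unadjusted).

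In the knockout comparison, leaving out the block gave 3487 genes in place of 6899, and Tet2 at 1.14 and Tet3 at 1.11 lost the call. With no trend the Dox difference by hour called 0 genes (2455 unadjusted) in place of 457, with Tet1 at 1.26 and Tet2 at 1.83 neither past the threshold, the knockout difference by hour called 16 in place of 85, and the cESC comparison 1878 in place of 2960, where Tet3 at −1.07 lost the call. Tet3 in cESCs also lost it in edgeR, at −0.95. For Tet2 in the EB course a spline of 1 degree of freedom gave −3.51.

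Without each library or pair in turn, counts of called genes ranged from 1542 to 4996 in the knockout course, 1919 to 5847 in the EB course, 400 to 1142 for the Dox difference by hour, 5 to 59 for the knockout difference by hour and 1236 to 3028 in cESCs. Member values ranged from −2.39 to −1.59 for Tet2 and 1.46 to 2.22 for Tet3 in the knockout course, −3.94 to −2.75 for Tet2 in the EB course, 0.69 to 1.35 for Tet1 and 0.83 to 1.87 for Tet2 in the Dox difference by hour, and −1.33 to −0.75 for Tet3 in cESCs.

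Of the ratios between single libraries, that of Tet1 moved beyond counting error under median-ratio scaling in serum/LIF with against without Dox (log2 0.13 to 0.18) and in cESCs of 24 h with against without earlier Dox (0.73 to 0.53). Low reads limit Tet3 at 0 h and in cESCs and Tet2 after 48 h without Dox, where counting intervals are widest relative to the level.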
